A study of Mus musculus with 26 samples.

Results

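The comparison of QSi5 with CBA/CaH mice on day 12 of pregnancy rested on 10 of the 26 arrays of the study, 5 for each strain. Its members were chosen by the strain and stage in the sample titles, and every probe set of the array was compared except the Affymetrix controls. QSi5 and CBA/CaH are inbred mouse strains, and QSi5 was derived from outbred Quackenbush Swiss mice that had been selected for litter size. RNA came from the inguinal mammary gland, frozen at collection, and was read on 1 Affymetrix mouse genome 430 2 array per sample. Another 6 arrays, 3 for each strain, came from day 9 of lactation, and 10 arrays came from an Advanced Intercross Line (AIL) of the same strains at that lactation stage. No treatment, allele or transgene was named for any group. The labels number the arrays of a group but do not say that each came from a separate mouse, so the p-values measure the spread between these samples, which may be technical.

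At mid-pregnancy the mouse mammary gland is building its milk-secreting tissue. Progesterone and prolactin drive luminal epithelial cells to divide and to form alveoli, Elf5 and Stat5a turn these cells toward secretion, and the alveoli fill a pad made largely of white adipocytes. Casein and whey protein genes switch on before birth, while most of the fat and lactose of milk is made only after it. All of these cell types share 1 extract here, so for every gene below, fewer cells of a type and less RNA per cell cannot be told apart.

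Values are log2 expression values, so that a difference of 1 is a doubling, and each difference is QSi5 minus CBA/CaH. The probe set of a gene with the highest mean across the 26 arrays stood for that gene, which was called at an adjusted p under 0.05 (limma, Benjamini-Hochberg over 45037 probe sets). Of these, 492 probe sets were called (1.09%), 293 higher in QSi5 (0.651%) and 199 lower (0.442%). Of 18193 genes, 222 were called (1.22%), 140 of them higher in QSi5 (0.77% of all genes) and 82 lower (0.451%). In 189 of the 222 the 5 arrays of one strain did not overlap the 5 of the other, against 418 of all genes (2.3%). The median size of a called difference was 1.05, the smallest was 0.49, and 25 genes differed by more than 2. Within CBA/CaH the median SD between arrays was 0.24, within QSi5 it was 0.27, and the median difference over all genes was 0.01. With 5 arrays a strain, array number limits how precise these values are.

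Several pregnancy arrays stood apart from their group in a measure of RNA quality or in markers of another tissue. The 3' probe set of Gapdh exceeded the 5' one by 6.50 on QSi5 array 4, by 1.20 to 1.74 on the remaining QSi5 arrays and by 0.89 to 2.86 on those of CBA/CaH. On QSi5 array 3 the median of 18 skeletal muscle markers was 10.66, against 6.85 on QSi5 array 5 and 4.23 to 4.81 on the other 8. Brown adipocyte markers had a median of 11.69 on CBA/CaH array 5 and 9.43 on CBA/CaH array 3, against 5.11 to 7.14 elsewhere. The defining markers of luminal cells were present on all 10 arrays, with Krt8 between 12.48 and 13.12. Without QSi5 array 4, 417 genes were called (2.29%), 296 higher (1.63%) and 121 lower (0.665%), and 208 of the 222 genes were among them. Without QSi5 arrays 3 and 4 and CBA/CaH array 5, 250 genes were called, 152 of them among the 222.

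**Figure D1:**
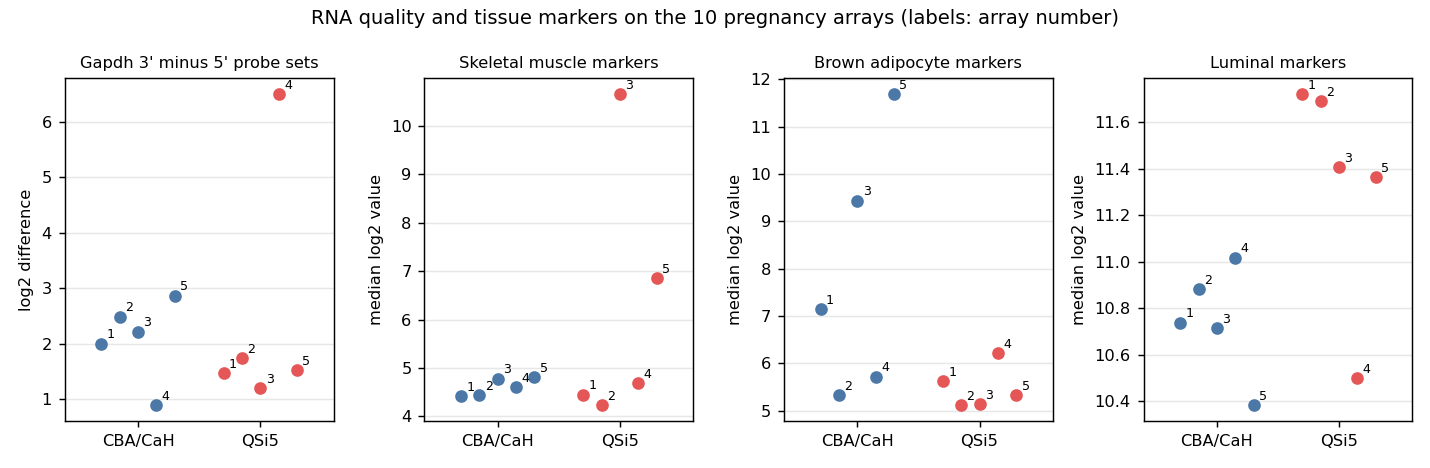
RNA quality and tissue markers on the 10 pregnancy arrays. Each point is 1 array and its number is printed beside it; the first panel plots the 3' minus 5' difference of Gapdh, and the others plot the median log2 value of a marker list. QSi5 array 4 lies at 6.50 in the first panel, QSi5 array 3 at 10.66 for skeletal muscle, CBA/CaH array 5 at 11.69 for brown adipocytes, and QSi5 array 4 at 10.50 for luminal markers, below the other 4 QSi5 arrays at 11.36 to 11.72.

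Genes of the major histocompatibility complex (MHC) gave some of the largest differences between the strains, in both directions. MHC class I molecules show peptides from inside the cell on nearly every cell type, class II molecules show peptides taken up by antigen-presenting cells, and the genes of both are known to vary in sequence between inbred strains. Of 16 measured genes of MHC and antigen processing, H2-K1 and H2-D1 were higher in QSi5 through the probe sets that stood for them, and H2-Eb1 and H2-Q10 were lower. The median difference of the list was 0.09, beside 0.01 over all genes, of which 1.22% were called. Promoters of the 4 called MHC genes in the reference mouse genome are shown. The elements near their starts can thus be set side by side. The sequences are RefSeq windows from 250 bases before to 50 bases after the transcript start on build GRCm38.p6. They are those of the reference strain, and the letters carried by QSi5 and CBA/CaH were not examined. The window of H2-K1, the first of its 2, is chr17:34000298-34000597 on the minus strand. Those on the plus strand are chr17:35262844-35263143 for H2-D1, chr17:35469839-35470138 for H2-Q10 and chr17:34305617-34305916 for H2-Eb1.
H2-K1: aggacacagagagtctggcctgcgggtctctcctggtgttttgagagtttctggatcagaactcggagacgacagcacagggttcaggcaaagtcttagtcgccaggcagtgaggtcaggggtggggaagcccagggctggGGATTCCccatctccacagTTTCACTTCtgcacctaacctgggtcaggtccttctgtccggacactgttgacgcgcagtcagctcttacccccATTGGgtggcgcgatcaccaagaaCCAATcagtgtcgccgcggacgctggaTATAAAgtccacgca
H2-D1: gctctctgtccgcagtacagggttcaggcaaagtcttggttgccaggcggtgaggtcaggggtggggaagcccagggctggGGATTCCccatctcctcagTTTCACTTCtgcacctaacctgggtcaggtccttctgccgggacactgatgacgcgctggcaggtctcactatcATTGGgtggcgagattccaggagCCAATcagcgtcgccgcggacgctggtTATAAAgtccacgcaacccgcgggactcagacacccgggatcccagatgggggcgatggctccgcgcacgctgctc
H2-Q10: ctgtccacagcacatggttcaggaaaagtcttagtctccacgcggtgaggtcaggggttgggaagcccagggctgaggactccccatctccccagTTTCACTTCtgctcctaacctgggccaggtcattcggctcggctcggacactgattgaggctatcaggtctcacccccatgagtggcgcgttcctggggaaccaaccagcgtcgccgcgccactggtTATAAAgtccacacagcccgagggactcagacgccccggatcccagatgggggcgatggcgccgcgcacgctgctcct
H2-Eb1: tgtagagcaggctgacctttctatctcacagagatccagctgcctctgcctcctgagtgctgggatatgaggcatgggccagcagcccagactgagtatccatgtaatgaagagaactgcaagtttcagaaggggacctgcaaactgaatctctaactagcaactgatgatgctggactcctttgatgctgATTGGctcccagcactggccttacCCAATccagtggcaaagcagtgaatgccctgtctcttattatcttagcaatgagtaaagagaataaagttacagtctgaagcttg

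Capitals mark matches, on either strand, to 4 short motifs. The motif GGATTCC, the middle of the class I enhancer that binds NF-kB and related factors, was found in the H2-K1 and H2-D1 windows and in 3.79% of 32851 RefSeq promoter windows. The motif GAANTGAAA, with N any base and a part of the element through which interferon acts on class I genes, was found in the 3 class I windows and in 1.83% of all windows. CCAAT, bound by NF-Y, was found in the H2-K1, H2-D1 and H2-Eb1 windows and in 37.4% of all windows, and TATAAA was found in the 3 class I windows and in 13.6% of all. GGATTCC and CCAAT were not among the letters of the H2-Q10 window. In the H2-K1 window the TATAAA and the forward CCAAT lie after the annotated start, whereas in the H2-D1 window both lie before it. No capitals of different motifs overlap in these windows, and a match is a description of the letters, not a binding site.

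H2-K1, a classical class I heavy chain, read 9.93, 10.45, 10.09, 10.78 and 9.83 on the CBA/CaH arrays and 13.17, 13.33, 13.38, 11.97 and 13.43 on the QSi5 arrays. Every QSi5 array was higher than every CBA/CaH array, and the lowest QSi5 value was that of array 4. The difference was 2.84 (SE 0.27, adjusted p = 1.72e-05), a 7.14-fold higher level. Of 3 other probe sets of H2-K1, 1 was called higher as well, by 4.02 (SE 0.33, adjusted p = 3.34e-06), and none was called lower.

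H2-D1, the other classical class I heavy chain read here, lay at 9.59, 9.33, 8.99, 9.60 and 9.44 in CBA/CaH and at 12.93, 13.04, 13.09, 11.71 and 13.01 in QSi5. The groups did not overlap and the difference was 3.37 (SE 0.22, adjusted p = 2.17e-07). The array holds 8 more probe sets named for H2-D1, and they did not run one way. Of these, 3 were called higher in QSi5, by 3.11 to 5.06, and 2 were called lower. One of the lower ones read a mean of 12.12 in CBA/CaH and 5.61 in QSi5, a difference of -6.50 (SE 0.29, adjusted p = 2.50e-09). The direction for H2-D1 is therefore not settled by this array. Class I genes are near-identical relatives, most of these probe sets are of the kind that may read several of them, and differences of sequence between the strains under the probes were not tested. The same limit holds for H2-K1 and H2-Q10.

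H2-Eb1 encodes the beta chain of the class II molecule I-E. It read 8.79, 8.39, 8.63, 9.70 and 8.65 in CBA/CaH and 6.04, 5.76, 5.67, 6.07 and 5.76 in QSi5. The groups were separate by more than 2 log2 units, and the difference was -2.97 (SE 0.22, adjusted p = 6.87e-07). H2-Eb1 had no other probe set, and differences of sequence between the strains under its probes were not tested. Other class II genes, named here for comparison although outside the rule for named genes, did not pass the test. H2-Aa and H2-Ab1, the chains of the molecule I-A, differed by 0.71 (SE 0.28, adjusted p = 0.456) and 1.02 (SE 0.30, adjusted p = 0.186). The invariant chain Cd74, which escorts class II molecules, differed by 0.15 (SE 0.34, adjusted p = 0.964).

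H2-Q10 encodes a class I molecule known to be secreted, mainly by the liver. Its CBA/CaH values were 7.70, 5.91, 7.05, 7.65 and 10.03, and its QSi5 values were 4.87, 4.61, 4.57, 4.93 and 5.25. The CBA/CaH arrays were widely spread, with the highest value on array 5, which also carried the highest brown adipocyte markers. The difference was -2.82 (SE 0.50, adjusted p = 0.00729), and -2.17 (adjusted p = 0.00613) without CBA/CaH array 5 and QSi5 arrays 3 and 4. It was no longer called when the 10 pregnancy arrays were fitted alone (adjusted p = 0.0726). The call was also lost without all arrays over 1 log2 unit above their group in a marker list or in Gapdh (-2.06, adjusted p = 0.0704). That setting kept only arrays 1 and 2 of each strain at pregnancy, so it tests little.

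The machinery that class I molecules depend on did not pass the test. B2m, their light chain, differed by 0.18 (SE 0.41, adjusted p = 0.965), with 10.40 on QSi5 array 4 and 12.74 to 12.89 on the other QSi5 arrays, against 11.57 to 13.00 in CBA/CaH. Tapbp, the peptide-loading chaperone tapasin, differed by -0.05 (SE 0.24, adjusted p = 0.987), and Psmb8, an immunoproteasome subunit, by -0.01 (SE 0.23, adjusted p = 0.998). None of 16 interferon response genes was called, and their median difference was 0.04. Gbp2, an interferon-induced GTPase, differed by 0.36 (SE 0.16, adjusted p = 0.529).

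**Figure D2:**
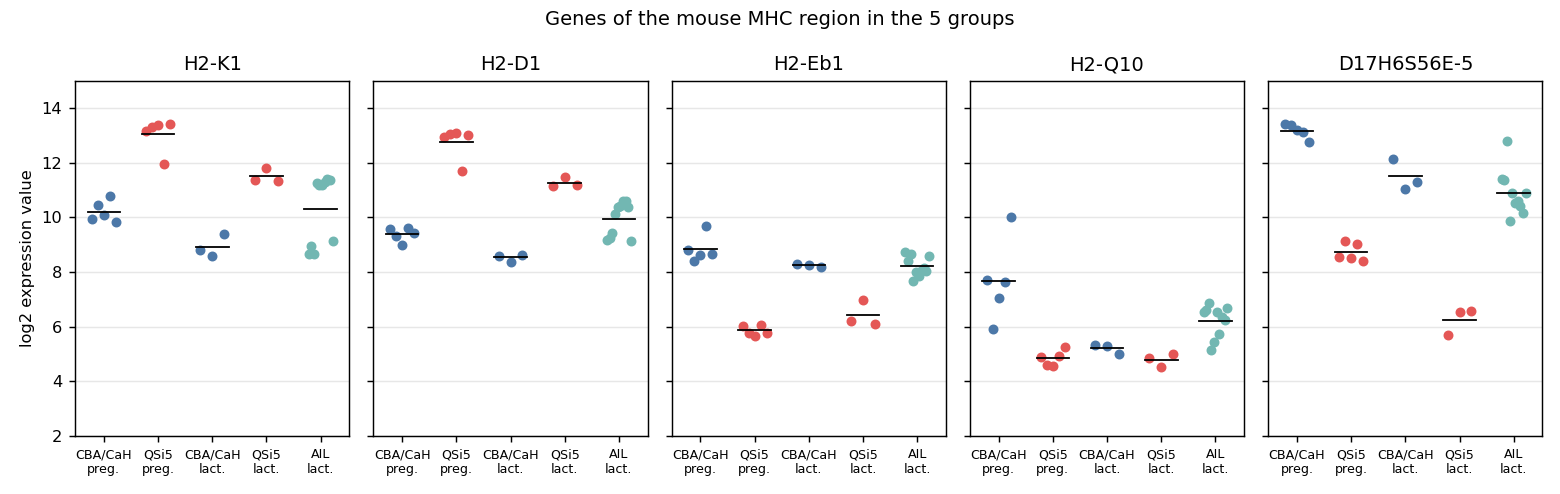
Log2 expression values of 5 genes that lie in or beside the mouse MHC, in each array of the 5 groups; bars mark group means. At pregnancy the QSi5 arrays of H2-K1 and H2-D1 lie above all CBA/CaH arrays, and those of H2-Eb1, H2-Q10 and D17H6S56E-5 lie below them; the AIL arrays of H2-K1 split into 4 at 8.67 to 9.12 and 6 at 11.17 to 11.40.

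Outside the classical MHC genes, the largest higher level in QSi5 was that of Tnfsf13os, a transcript named as the antisense partner of the cytokine gene Tnfsf13. It read 4.08, 4.80, 4.63, 4.40 and 4.49 in CBA/CaH and 8.94, 8.45, 8.72, 7.69 and 9.15 in QSi5. The difference was 4.11 (SE 0.24, adjusted p = 6.52e-08) with no overlap, and the CBA/CaH values were below the array medians of 5.00 to 5.14, so no exact fold is given. Its other probe set was not called.

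Coro2a, a coronin that binds actin, read 5.50, 5.32, 4.95, 5.04 and 5.06 in CBA/CaH and 8.83, 9.67, 8.84, 7.28 and 9.47 in QSi5, a difference of 3.64 (SE 0.33, adjusted p = 1.10e-05). Trim14, which acts in antiviral signalling and is a neighbour of Coro2a in the genome, was higher by 2.37 (SE 0.38, adjusted p = 0.00288). QSi5 array 4 at 6.61 was just above the highest CBA/CaH array at 6.59, and the other QSi5 arrays lay at 8.31 to 9.35. Shisa2, which holds Wnt and FGF receptors back in the endoplasmic reticulum, lay at 4.54 to 6.42 in CBA/CaH and at 6.89 to 9.03 in QSi5, with QSi5 array 4 the lowest (3.04, SE 0.38, adjusted p = 0.000341).

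The other genes of the 12 with the largest higher levels were AI467606 (3.03), Gdpd1 (2.65), Fam168a (2.61), AI506816 (2.61), Sectm1b (2.20) and H2bc21 (2.04). Gdpd1, an enzyme that cleaves lysophospholipids, was 5.38 on QSi5 array 5 and 7.11 to 8.55 on the others, against 4.43 to 5.13 in CBA/CaH. Fam168a was also lowest on QSi5 array 5, at 6.61 against 8.55 to 8.64 on the others. Sectm1b belongs to a family of secreted and membrane proteins that bind the T cell receptor CD7, and H2bc21 is a histone H2B gene. Their adjusted p-values ran from 2.17e-07 for AI506816 to 0.00398 for Gdpd1.

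Pdxdc1, a gene for a protein with a pyridoxal-dependent decarboxylase domain, had the largest negative difference through the probe set that stood for it. It read 9.91, 9.91, 9.64, 9.51 and 9.42 in CBA/CaH and 4.87, 5.13, 5.24, 4.30 and 5.46 in QSi5, a difference of -4.68 (SE 0.21, adjusted p = 2.51e-09). Another probe set of Pdxdc1 was called in the opposite direction, at 5.67 in CBA/CaH and 8.07 in QSi5 (2.40, SE 0.17, adjusted p = 5.01e-07), and averaging its 4 probe sets left no call (-0.30, adjusted p = 0.688). Which strain has more Pdxdc1 transcript is not settled by this array.

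D17H6S56E-5, a transcript of the class III part of the MHC region, was lower in QSi5 through both of its probe sets. It read 13.43, 13.38, 13.20, 13.14 and 12.77 in CBA/CaH and 8.56, 9.14, 8.50, 9.04 and 8.42 in QSi5. Every QSi5 array was far below every CBA/CaH array, and the gap of -4.45 (SE 0.23, adjusted p = 1.19e-08) was a 21.9-fold lower level in QSi5. The other probe set differed by -5.59 (SE 0.45, adjusted p = 2.50e-06).

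Ccdc122, which encodes a coiled-coil protein, read 7.90, 8.15, 7.52, 7.84 and 7.45 in CBA/CaH and 4.06, 3.72, 3.85, 4.45 and 4.46 in QSi5 (-3.67, SE 0.17, adjusted p = 5.16e-09). Ceacam10, an adhesion molecule of the carcinoembryonic antigen family, lay at 7.80 to 9.26 in CBA/CaH and at 5.12 to 7.15 in QSi5 (-2.45, SE 0.34, adjusted p = 0.000796). Golt1b, a Golgi transport protein, lay at 8.59 to 9.37 and at 5.54 to 7.39 (-2.35, SE 0.28, adjusted p = 0.000161). Rab5b, a small GTPase of early endosomes, was nearly level across QSi5 arrays at 5.21 to 5.38, below every CBA/CaH array at 6.54 to 8.36 (-2.18, SE 0.29, adjusted p = 0.000578). The other genes of the 12 with the largest lower levels were Zfp979 (-2.40), Abhd1 (-2.34), Cspg5 (-1.96) and Polh (-1.96), of which Polh is the DNA polymerase eta that copies past ultraviolet damage.

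**Figure D3:**
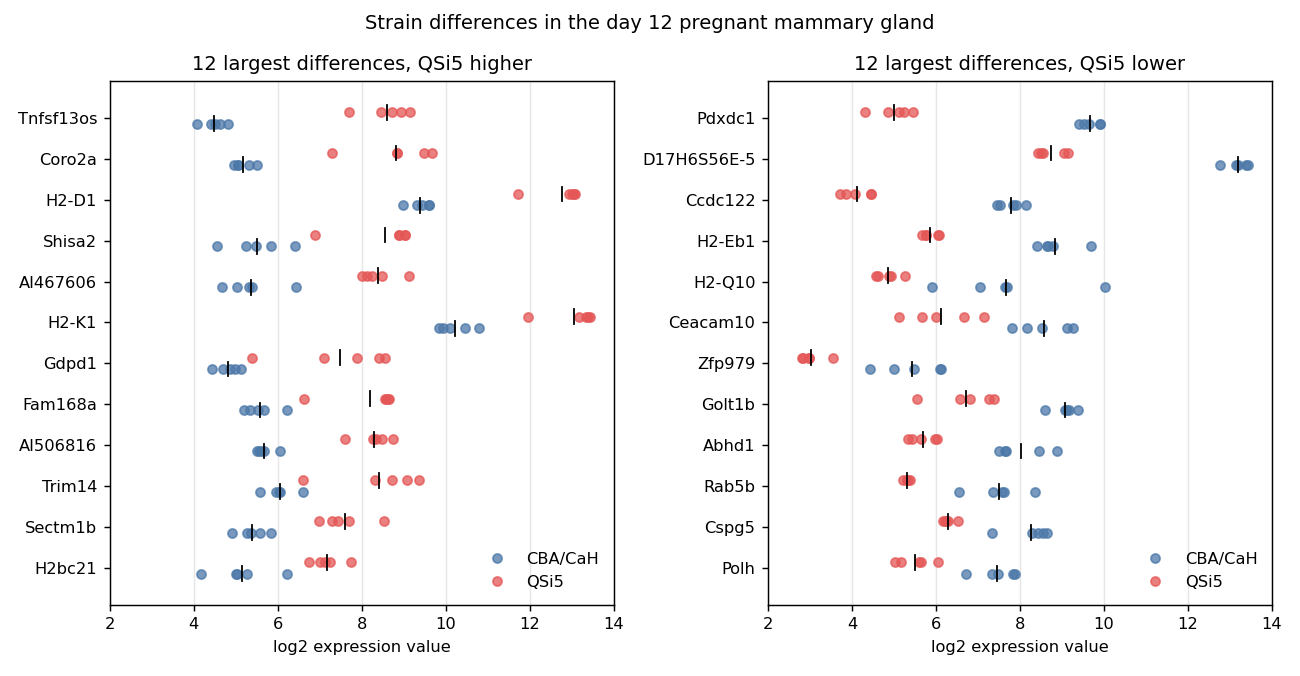
Log2 expression values of 24 called genes without overlap between the strains, 12 with the largest positive difference at left and 12 with the largest negative one at right. Each point is 1 pregnancy array, blue for CBA/CaH and red for QSi5, and the bars are group means; the gaps run from 2.04 (H2bc21) to 4.11 (Tnfsf13os) at left and from -1.96 (Polh) to -4.68 (Pdxdc1) at right.

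Probe sets of 1 gene did not always move together, which bears on how firmly a single gene can be read. For no gene named here were differences of sequence between the strains under the probes tested. Of the 222 called genes, 122 had more than 1 probe set. In 33 of these another probe set was called in the same direction and none in the opposite one, in 5 another was called in the opposite direction, and in 84 no other was called. Among the genes of largest difference, no other was called for Tnfsf13os, Trim14 (other probe set 0.10), Fam168a (0.14 to 0.47) and Sectm1b (0.63). The same held for Golt1b (0.49), Rab5b (-0.09) and Polh (-0.20 to 0.07). In these genes the called difference rested on 1 probe set, and whether the transcript level differs is not settled. Another was called in the same direction for Shisa2 (2.75), AI467606 (1.64), Gdpd1 (1.30), H2bc21 (1.49), Ceacam10, H2-K1 and D17H6S56E-5. Kctd14, singled out after its values were seen, was higher by 1.64 (adjusted p = 0.00107) through its chosen probe set and lower by -2.37 and -3.18 through other probe sets (adjusted p = 0.00167 and 0.000115). Glo1, the glyoxalase that detoxifies methylglyoxal, also singled out afterwards, was lower through all 4 of its probe sets, by -1.01 to -2.48.

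Genes of milk itself mostly did not pass the test. Of 13 measured milk protein genes, 1 was called, beside 1.22% of all genes, and the median difference was -0.12. The sign of that median turned without QSi5 array 4, to 0.15 with Ltf called. It also turned, to 0.03 with none called, without CBA/CaH array 5 and QSi5 arrays 3 and 4. With array weights, which called 729 of 18193 genes in all, the median was 0.12. Ltf, Lalba and Cel were called in that setting, the latter pair named after their values were seen. The gene called with all arrays was Ltf, lactoferrin, an iron-binding protein of milk and of innate defence. It read 8.60, 9.26, 8.60, 9.32 and 8.50 in CBA/CaH and 10.79, 9.39, 10.62, 9.73 and 10.99 in QSi5. QSi5 array 2 was just above the highest CBA/CaH array, QSi5 arrays 1, 3 and 5 were well above it, and the difference was 1.45 (SE 0.32, adjusted p = 0.0374). The Ltf call was lost without any 1 of CBA/CaH arrays 1, 3 and 5 or QSi5 arrays 1, 3 and 5 (adjusted p = 0.0869 to 0.114).

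Csn2, beta-casein, was near the top of the scale in both strains, at 14.71 to 14.96 in CBA/CaH and at 14.14 to 14.95 in QSi5, so its difference of -0.13 (SE 0.13, adjusted p = 0.888) does not test a change. Wap, whey acidic protein, was spread over 10.75 to 13.67 in CBA/CaH and at 11.35 to 13.70 in QSi5 (0.72, SE 0.51, adjusted p = 0.792). Lalba, alpha-lactalbumin of lactose synthase, lay at 11.34 to 12.45 and 11.76 to 13.13 (0.69, SE 0.29, adjusted p = 0.506). QSi5 arrays 1, 3 and 5 were the high ones for both Wap and Lalba, and the strains overlapped in each.

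Of 10 genes of the milk fat globule and the lipid droplet, 1 was called, beside 1.22% of all genes. Muc1, the mucin of the luminal cell surface that also coats milk fat globules, read 8.19, 8.21, 7.63, 7.81 and 7.29 in CBA/CaH and 10.04, 9.60, 9.65, 9.37 and 10.10 in QSi5. The groups were more than 1 log2 unit apart, and Muc1 was 3.79-fold higher in QSi5 (1.92, SE 0.18, adjusted p = 1.54e-05). Its call held in all 23 alternatives tried. The median difference of the list was -0.14. The droplet coat protein Plin2 (-0.14, SE 0.13), the globule protein Mfge8 (-0.07, SE 0.11) and butyrophilin Btn1a1 (-0.02, SE 0.19) had adjusted p-values of 0.870 to 0.993.

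Genes of mucin sugars were looked at after the value of Muc1 was seen, so no set is claimed. C1galt1, which makes the core 1 sugar of mucins, was higher in QSi5 by 1.26 (SE 0.21, adjusted p = 0.00468), at 5.75 to 6.74 in CBA/CaH and at 6.84 to 7.96 in QSi5. Gcnt1, which branches core 1 into core 2, was higher by 2.03 (SE 0.33, adjusted p = 0.00357), with 4.83 on QSi5 array 4 and 6.52 to 7.22 on the others against 4.12 to 4.62 in CBA/CaH. Muc20, a smaller membrane mucin, was lower, by -0.96 (SE 0.17, adjusted p = 0.00817). Other probe sets of C1galt1 (0.23 to 0.34), Gcnt1 (0.40) and Muc20 (-0.46) were not called.

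None of 23 fatty acid and triglyceride synthesis genes was called, and their median difference was -0.29. The median turned to 0.07 without CBA/CaH array 5 and QSi5 arrays 3 and 4. It was 0.24 without all arrays over 1 log2 unit above their group in a marker list or in Gapdh. That last setting kept only arrays 1 and 2 of each strain at pregnancy. Fasn, fatty acid synthase, read 12.47, 12.28, 12.70, 12.35 and 14.04 in CBA/CaH and 12.43, 12.10, 11.48, 11.85 and 12.51 in QSi5 (-0.70, SE 0.31, adjusted p = 0.560). The high CBA/CaH value was that of array 5, and without it and QSi5 arrays 3 and 4 the Fasn difference was -0.11 (adjusted p = 0.903). Thrsp, which supports lipogenesis, differed by -0.58 (SE 0.22, adjusted p = 0.398), and Scd1, the delta-9 desaturase, by -0.44 (SE 0.30, adjusted p = 0.778).

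None of 13 fatty acid oxidation genes was called either, though 11 of the 13 differences were negative and their median was -0.66. Hadhb, a subunit of the mitochondrial trifunctional protein, read 12.90 on CBA/CaH array 5 and 9.60 on QSi5 array 4, where the 8 others lay at 10.58 to 11.52 (-0.83, SE 0.36, adjusted p = 0.520). Without those 2 arrays and QSi5 array 3 the median of the list was -0.23. It was 0.02 with only arrays 1 and 2 of each strain kept at pregnancy. Markers of brown adipocytes, cells that burn fat, were highest on the same CBA/CaH array 5. Of their 10 genes 9 had a negative difference, with a median of -0.94 and none called. Cidea, a lipid droplet protein of brown fat and of the secretory gland, lay at 8.46 to 12.88 in CBA/CaH and at 7.97 to 8.41 in QSi5 (-1.99, SE 0.59, adjusted p = 0.186). Per array, the median level of the brown adipocyte markers ran from 5.32 to 11.69 in CBA/CaH and from 5.11 to 6.22 in QSi5, and their part in the lipid gene values was not tested.

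Transport genes held called members in both directions. Of 17 ion, zinc and amino acid transporters, 1 was higher and 2 were lower, with a median of -0.10. Over all genes 0.77% were called higher and 0.451% lower. Slc16a1, the lactate and ketone carrier MCT1, read 10.66, 10.99, 10.33, 10.31 and 10.58 in CBA/CaH and 9.60, 9.62, 9.39, 8.22 and 9.73 in QSi5, without overlap (-1.26, SE 0.25, adjusted p = 0.0171). The call of Slc16a1 was lost without CBA/CaH array 2 (-1.16, adjusted p = 0.0511), with the 10 pregnancy arrays alone (adjusted p = 0.0849) and with all 26 arrays (adjusted p = 0.0696). Slc34a2, a sodium phosphate carrier, was lower by -1.33 (SE 0.26, adjusted p = 0.0181), with QSi5 array 5 at 8.65 inside the CBA/CaH range of 8.51 to 9.46, and its call was lost without any 1 of CBA/CaH array 2 and QSi5 arrays 2 and 3 (adjusted p = 0.0521 to 0.0566).

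Aqp5, a water channel of secretory epithelia, lay at 8.63 to 9.39 in CBA/CaH and at 9.52 to 10.16 in QSi5 (0.85, SE 0.17, adjusted p = 0.0206). That call was lost without any 1 of CBA/CaH arrays 2 and 5 and QSi5 arrays 1, 2 and 5 (adjusted p = 0.0519 to 0.0703). Slc12a2, the sodium, potassium and chloride cotransporter of the basal membrane, differed by 0.75 (SE 0.30, adjusted p = 0.447), and the zinc carrier Slc30a4 by 0.02 (SE 0.20, adjusted p = 0.993).

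Regulators of pregnancy development mostly did not pass the test. None of 10 prolactin and STAT5 genes (median 0.04) and none of 7 steroid receptor and paracrine genes (median 0.04) was called. Without QSi5 array 4, 1 prolactin and STAT5 gene was called higher and that list's median was 0.20. This was Tnfsf11 (0.88, adjusted p = 0.0112), the RANK ligand, named after its value was seen. It was also called with the Gapdh covariate (0.69, adjusted p = 0.00531) and with array weights. The covariate called 416 of 18193 genes in all, and the weights called 729. Tnfsf11 was called too without all arrays over 1 log2 unit above their group, which left only arrays 1 and 2 of each strain at pregnancy. Elf5, the transcription factor of the alveolar cell, read 12.03 to 13.03 in CBA/CaH, 10.98 on QSi5 array 4 and 12.56 to 13.05 on the other QSi5 arrays (-0.27, SE 0.32, adjusted p = 0.912). Stat5a, which carries the prolactin signal, showed the same low array, at 9.15 against 10.33 to 10.76 (0.14, SE 0.29, adjusted p = 0.960). Pgr, the progesterone receptor, differed by 0.05 (SE 0.28, adjusted p = 0.990), and Esr1, the oestrogen receptor, by 0.04 (SE 0.19, adjusted p = 0.987). Of 17 Wnt pathway genes, Wnt5a, a non-canonical ligand, was the 1 called, beside 1.22% of all genes. Wnt5a lay at 5.58 to 6.63 in CBA/CaH and at 4.95 to 5.43 in QSi5 (-0.82, SE 0.17, adjusted p = 0.0282). Its call was lost without any 1 of CBA/CaH array 2 and QSi5 arrays 1, 3 and 5 (adjusted p = 0.0629 to 0.0897). A mean over the Wnt5a probe sets was not called either (-0.29, adjusted p = 0.498).

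Of 29 cell cycle genes 1 was called, beside 1.22% of all genes, 22 differences were positive and the median was 0.18. Without QSi5 array 4, the array with the Gapdh value of 6.50, 2.29% of all genes were called. Of this list 5 members were then called higher, and the median was 0.45. These were Birc5 and, named here after their values were seen, the mitotic kinases Aurka (0.78, adjusted p = 0.0120) and Plk1 (0.86, adjusted p = 0.0218), the spindle checkpoint kinase Bub1b (0.97, adjusted p = 0.00442) and the mitotic cyclin Ccnb2 (0.76, adjusted p = 0.0419). With the Gapdh covariate (416 of 18193 genes called in all), and with array weights (729 called), 4 of these were called, all but Ccnb2. Without CBA/CaH array 5 and QSi5 arrays 3 and 4, Bub1b alone was called. Birc5, survivin, which acts at the spindle, read 9.65, 8.91, 9.07, 9.06 and 9.15 in CBA/CaH and 9.85, 10.69, 10.01, 9.55 and 9.75 in QSi5 (0.80, SE 0.18, adjusted p = 0.0477). The strains overlapped, and the call of Birc5 was kept in only 2 of the 10 settings that left out 1 array, those without CBA/CaH array 1 and QSi5 array 4. Mki67, the marker of dividing cells, differed by -0.01 (SE 0.30, adjusted p = 0.998), and the DNA replication genes Pcna (-0.19, SE 0.26), Mcm6 (0.18, SE 0.35) and Mcm7 (-0.03, SE 0.22) had adjusted p-values of 0.931 to 0.993.

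Markers of luminal epithelium mostly had positive differences. Of 13 measured markers 12 had a positive difference, with a median of 0.32, and 2 were called, beside 1.22% of all genes. Without QSi5 array 4, Krt19 (1.11, adjusted p = 0.0357, named after its value was seen) was called as well and the median was 0.55, and without CBA/CaH array 5 and QSi5 arrays 3 and 4, Prom1 alone was called. Prom1, a membrane protein of hormone-sensing luminal cells, read 5.81, 5.75, 5.43, 5.21 and 6.15 in CBA/CaH and 6.41, 6.88, 6.58, 7.35 and 6.52 in QSi5 (1.08, SE 0.19, adjusted p = 0.00741). Krt7, a luminal keratin, read 7.82, 7.44, 7.56, 7.93 and 7.60 in CBA/CaH and 8.84, 8.49, 8.51, 8.50 and 8.60 in QSi5 (0.92, SE 0.18, adjusted p = 0.0137). Neither gene overlapped between the strains, which held for 2.3% of all genes. Krt18 did not overlap either, at 11.92 to 12.12 and 12.22 to 12.89, but did not pass the test (0.59, SE 0.23, adjusted p = 0.420), and Krt8 differed by 0.32 (SE 0.16, adjusted p = 0.628). Of 11 myoepithelial markers none was called (median 0.32). Acta2, smooth muscle actin, differed by 0.32 (SE 0.19, adjusted p = 0.729), and Krt14, a basal keratin, by -0.29 (SE 0.19, adjusted p = 0.763). Differences were also positive for 10 of 11 endothelial markers (median 0.30) and 12 of 17 fibroblast and matrix markers (median 0.24), with none called. A lean to positive differences was thus not particular to luminal markers, though only 2 of 12 white adipocyte markers had one.

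Of 12 white adipocyte markers none was called, and their median difference was -0.16. That median was -0.08 without CBA/CaH array 5 and QSi5 arrays 3 and 4. With only arrays 1 and 2 of each strain kept at pregnancy it turned to 0.87. Adipoq, adiponectin, read 8.55 on CBA/CaH array 2 and 11.34 to 12.98 on the other CBA/CaH arrays, against 9.99 to 11.41 in QSi5 (-0.35, SE 0.62, adjusted p = 0.951). Across the alternatives tried, the Adipoq difference ran from -1.04 to 1.37 and was never called. Skeletal muscle markers had the largest median of any list, 1.56, with none of 18 called. Ckm, muscle creatine kinase, was 13.45 on QSi5 array 3, 8.35 on QSi5 array 5 and 5.88 to 6.48 on the other 8 arrays. With the muscle-rich array 3, array 4 and CBA/CaH array 5 left out, the median of that list was 0.58. QSi5 array 5 was still in that fit, and 1 member, Mb, was called lower (-1.29, adjusted p = 0.0342). With only arrays 1 and 2 of each strain kept at pregnancy, the median of the muscle list was -0.04.

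Detoxification genes held called members in both directions. Of 20 glutathione and detoxification genes 1 was higher and 1 lower, where 1.22% of all genes were called. Cyp1b1, a cytochrome P450 that hydroxylates oestrogens and aromatic hydrocarbons, lay at 9.33 to 10.30 in CBA/CaH and at 7.24 to 8.89 in QSi5 (-1.44, SE 0.27, adjusted p = 0.0128). Gsta2, a glutathione transferase, was higher by 1.07 (SE 0.24, adjusted p = 0.0397) with overlapping arrays, a call lost without any 1 of CBA/CaH arrays 1, 3 and 5 or QSi5 arrays 1, 3, 4 and 5 (adjusted p = 0.0585 to 0.114). Gstp1, the abundant pi-class transferase, did not overlap, at 11.51 to 11.75 and 11.17 to 11.34, but missed the threshold (-0.34, SE 0.09, adjusted p = 0.0910).

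Of 11 acute phase and innate defence genes 1 was called, beside 1.22% of all genes. Cp, ceruloplasmin, the copper-carrying ferroxidase that is also secreted into milk, read 11.48, 11.72, 11.61, 11.67 and 10.30 in CBA/CaH and 10.18, 9.95, 9.94, 9.37 and 9.86 in QSi5. No QSi5 array reached the lowest CBA/CaH array, array 5, and the difference was -1.49 (SE 0.28, adjusted p = 0.0123). Of 7 other Cp probe sets, 3 were also called lower, by -1.57 to -2.59, and none higher. Lcn2, which traps bacterial iron carriers, differed by -0.22 (SE 0.37, adjusted p = 0.948). Hc, the complement component C5, was singled out after its values were seen. It was lower in QSi5 by -1.51 (SE 0.23, adjusted p = 0.00242), at 5.43 to 6.77 in CBA/CaH and at 4.28 to 5.05 in QSi5.

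**Figure D4:**
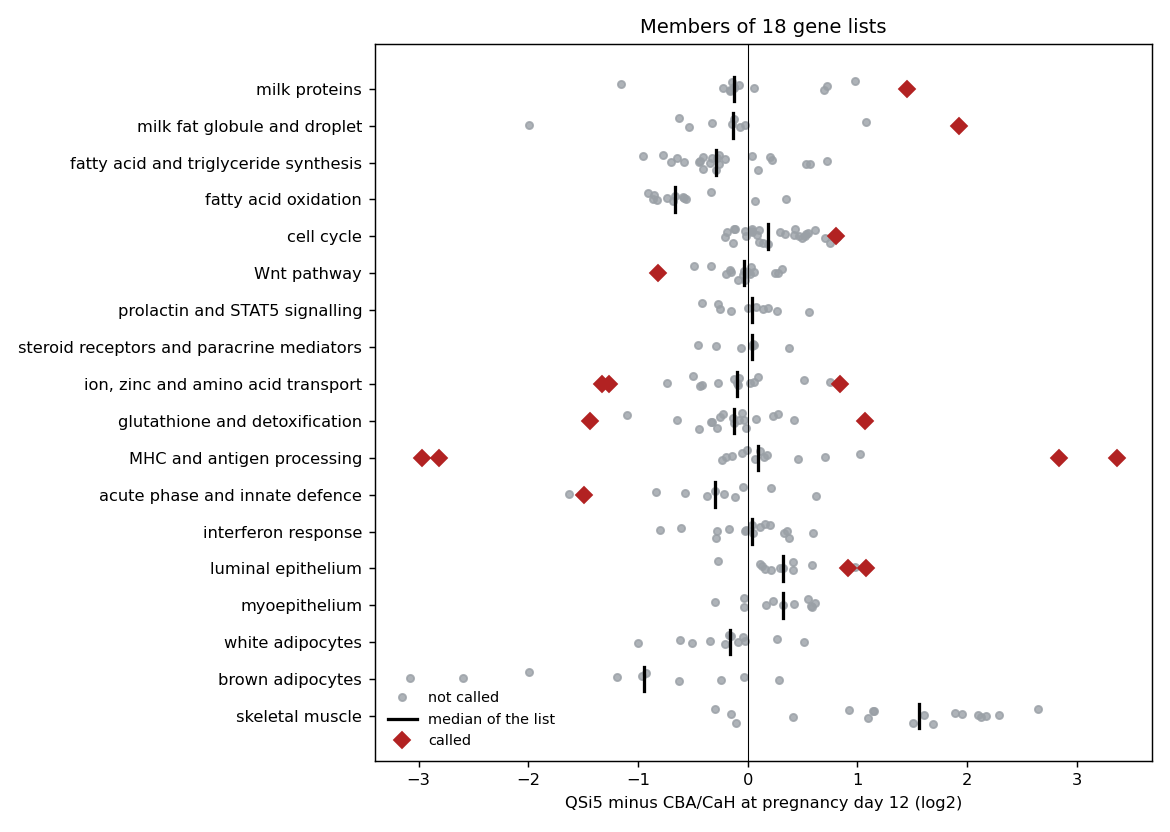
QSi5 minus CBA/CaH differences of the members of 18 gene lists at pregnancy day 12. Each grey point is a member that was not called and each red diamond a called member. The black bar is the median of the list. Of 37 lists counted, 9 hold a called member, and all 9 are among the 18 drawn. Over all genes 1.22% were called. The MHC list holds 4 called members and the transport list 3. The muscle and brown adipocyte lists, with medians of 1.56 and -0.94, hold none.

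The mice of the lactation stage, measured on other arrays, gave a second reading of the same strain difference. At lactation 63 genes were called for strain (0.346%), 29 higher (0.159%) and 34 lower (0.187%), with 3 arrays per strain. Of the 222 genes called at pregnancy, 24 were also called at lactation in the same direction, 14 higher and 10 lower in QSi5, and none of the 222 was called at lactation in the opposite one. Whether or not they passed, 182 of the 222 had the same sign at lactation (82.0%), against 52.9% of the 17971 genes not called at pregnancy. The fit shares 1 estimate of spread between the stages but no array. In 21 of the 24 neither stage had overlapping arrays. At pregnancy 2.3% of all genes did not overlap, and the lactation share was not counted. Genes called at both stages tend to be separate anyway, so the 21 serve only to name genes.

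The 6 highest of those 21 at pregnancy were Tnfsf13os, H2-D1, AI467606, H2-K1, Ptger2 and Ctse. Ptger2, a receptor of prostaglandin E2, lay at 4.60 to 5.97 in CBA/CaH and at 7.06 to 7.67 in QSi5 at pregnancy (2.00, SE 0.25, adjusted p = 0.000259), and the lactation difference was 2.10 (SE 0.32, adjusted p = 0.00483). Ctse, the endosomal protease cathepsin E, was higher by 1.96 at pregnancy (SE 0.24, adjusted p = 0.000259) and by 2.70 at lactation (SE 0.31, adjusted p = 0.000330). The 6 lowest were Pdxdc1, D17H6S56E-5, H2-Eb1, Golt1b, Capg and Vamp3. For Pdxdc1 and H2-D1 the direction is that of the chosen probe set and is not settled. D17H6S56E-5 was lower at lactation by -5.25 (SE 0.30, adjusted p = 1.69e-07). Capg, which caps actin filaments, was lower by -1.66 (SE 0.19, adjusted p = 9.61e-05) and -2.61 (SE 0.24, adjusted p = 3.68e-05), and Vamp3, a vesicle fusion protein, by -1.48 (SE 0.15) and -1.94 (SE 0.19), although a mean over the 5 Vamp3 probe sets was not called at pregnancy (-0.29, adjusted p = 0.346). Slc16a1 was lower at lactation by -2.95 (SE 0.32, adjusted p = 0.000195).

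A difference between the stages was tested as the strain by stage interaction, which called 47 probe sets (0.104%). These gave 18 genes (0.0989%), 10 with a positive interaction (0.055%) and 8 with a negative one (0.044%), and 8 of the 18 were among the 222. Coro2a had the largest stage difference of the 6 named by rule. QSi5 exceeded CBA/CaH by 3.64 at pregnancy and differed by -0.43 at lactation, where CBA/CaH arrays read 7.29 to 7.47 and QSi5 arrays 6.55 to 7.42 (interaction 4.07, SE 0.54, adjusted p = 0.00584). Ccdc122 differed by -3.67 at pregnancy and -0.69 at lactation (interaction -2.98, SE 0.29, adjusted p = 0.000453). At lactation Ccdc122 was dim in both strains, at 4.71 to 5.17 in CBA/CaH and at 4.00 to 4.41 in QSi5.

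Cspg5, a chondroitin sulphate proteoglycan, went from -1.96 to 0.17 (interaction -2.14, SE 0.32, adjusted p = 0.0114), and Capn9, a calpain protease, from -1.89 to -0.31 (interaction -1.58, SE 0.24, adjusted p = 0.0114). AI506816 went from 2.61 to 0.74 (interaction 1.86, SE 0.28, adjusted p = 0.0116), and Pdxdc1 from -4.68 to -2.48 (interaction -2.20, SE 0.34, adjusted p = 0.0167). These Pdxdc1 values are those of 1 probe set. The one called in the opposite direction differed by 2.40 at pregnancy and by 2.19 at lactation. Shisa2, with 3.04 at pregnancy and 0.07 at lactation, did not pass this test (interaction 2.96, SE 0.63, adjusted p = 0.140). Ltf, Aqp5, Prom1 and Krt7 had lactation differences of 0.05, -0.32, -0.20 and -0.04, and their interactions did not pass either (adjusted p = 0.245 to 0.820).

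**Figure D5:**
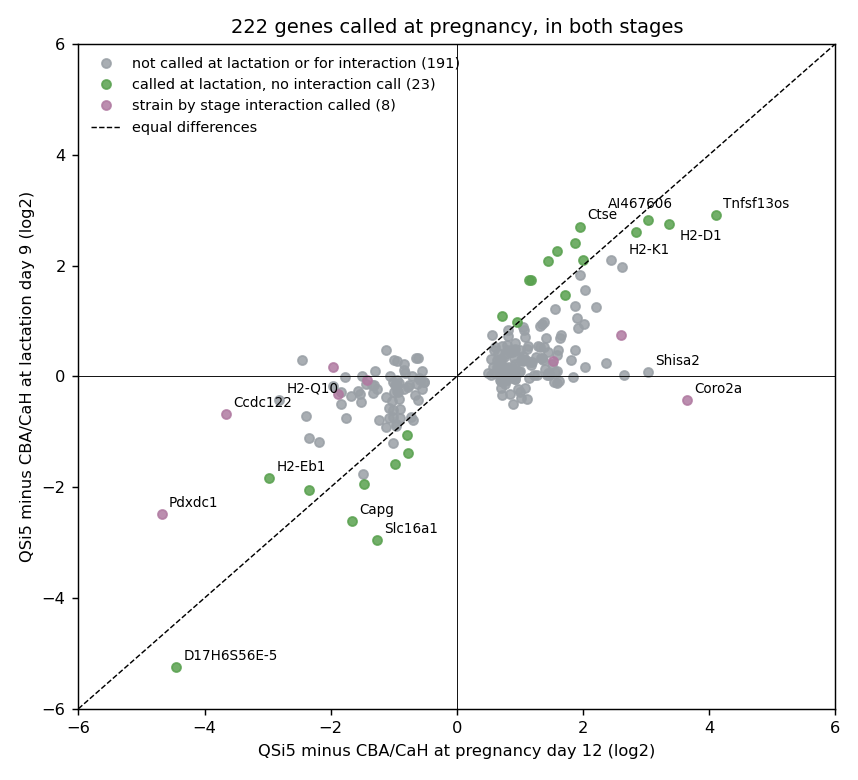
Strain difference at lactation day 9 (vertical, log2) against that at pregnancy day 12 (horizontal, log2) for the 222 genes called at pregnancy. Grey points were called at pregnancy but neither at lactation nor for the interaction, green points were called at lactation with no interaction call, purple points were called for the interaction, and the dashed line marks equal differences; D17H6S56E-5, H2-K1 and H2-D1 lie near the line, and Coro2a and Ccdc122 lie near a lactation difference of 0.

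Some called genes lay near each other in the genome. By the gene order of the RefSeq table, 49 of the 222 (22.1%) had another called gene within 5 measured genes on either side, against 10.9% of the genes not called, a difference that was not tested. They formed 23 groups of 2 or 3 genes, and in 19 of these the members differed in 1 direction. The groups given here were chosen after their values were seen. One held Trmo (0.64), Trim14 (2.37) and Coro2a (3.64), all higher in QSi5. D17H6S56E-5 (-4.45) stood beside Vars (-0.98), the valyl-tRNA synthetase, and both were lower at lactation as well (-5.25 and -1.58). H2-D1 (3.37), H2-Q2 (1.88) and H2-Q10 (-2.82) formed a group of mixed direction as read, although that of H2-D1 differed between its probe sets. Another mixed group held Capg (-1.66), Elmod3 (-1.23) and Retsat (1.58), a retinol saturase.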

How the data were processed

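The 26 samples were each read on 1 Affymetrix mouse genome 430 2 array, and the comparison used 5 CBA/CaH and 5 QSi5 arrays of pregnancy day 12. The deposited log2 values had been summarised with RMA, per the submitters' processing notes. Whether all arrays were normalised together, and with which probe definitions, is not given in the sources used here. Of 45101 probe sets, 64 controls were left out and 45037 were tested. GEO's platform annotation gave 34945 of them 1 gene symbol, 932 several and 9160 none.

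A linear model with 1 mean per group was fitted to the 16 CBA/CaH and QSi5 arrays in limma 3.58.1 under R 4.3.3 (lmFit, then eBayes). The lactation arrays entered this fit so that the stages share an estimate of spread, and p-values were adjusted by Benjamini-Hochberg. The script was tested on simulated data. Arrays were grouped by their titles, no 2 of them held identical values, and the labels name no batch.

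Named genes were the 12 highest and 12 lowest called genes without overlap, the 6 highest and 6 lowest that were also called at lactation without overlap, and 6 genes called for the interaction. From each gene list described, up to 5 called members and the 3 members with the highest level among those not called could be named, beside a few fixed genes. The members and lists were chosen with earlier results of these data known. Some 37 lists with 523 genes were counted, of which 484 genes were measured, and 28 lists had no called gene. Alternatives covered the filter on low values, the variance model, the normalization, the arrays in the fit, array weights, a replicate block, the Gapdh 3' minus 5' value, arrays that stand apart and the probe set of a gene.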

Additional observations from a re-analysis of the deposited data

Results flagged for a closer look

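In 13 of 112 groups of 5 values tested, 1 array lay far from the other 4. For a single group chance gives about 1 in 20. The groups share the same 10 arrays and are not independent, so that rate is no benchmark for the count. QSi5 array 4 was that array in 8 of the 13. Its Gapdh 3' minus 5' value was 6.50, against 1.20 to 1.74 on the other QSi5 arrays. H2-D1 read 11.71 there (others 12.93 to 13.09), H2-K1 read 11.97 (others 13.17 to 13.43) and Shisa2 read 6.89 (others 8.87 to 9.03). The regulators Elf5, at 10.98 (others 12.56 to 13.05), and Stat5a, at 9.15 (others 10.33 to 10.76), were low on the same array. Zfp979, at 3.54 (others 2.81 to 2.97), and Capg, at 6.84 (others 6.02 to 6.23), were high on it. For the called genes among these, the value of array 4 lay between the other QSi5 arrays and the CBA/CaH arrays. The part of RNA quality in these values was not tested.

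On CBA/CaH array 5, Cspg5 was low at 7.34 (others 8.29 to 8.64) and Fasn was high at 14.04 (others 12.28 to 12.70). Fam168a was low on QSi5 array 5 at 6.61 (others 8.55 to 8.64). The median of white adipocyte markers was low on CBA/CaH array 2 at 8.45 (others 10.44 to 11.12). The median of T and NK cell markers was high on CBA/CaH array 4 at 5.89 (others 5.04 to 5.27).

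The strain difference at pregnancy minus that at lactation passed the limma interaction test for Coro2a (4.07), Ccdc122 (-2.98), Pdxdc1 (-2.20), Cspg5 (-2.14), AI506816 (1.86) and Capn9 (-1.58).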

How the results depend on the processing

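As reported, 492 probe sets and 222 genes were called at pregnancy, 55 of these probe sets also in the same direction at lactation, and 47 for the interaction. With only the 10 pregnancy arrays, 306 probe sets and 139 genes were called, and the other counts could not be fitted. With all 26 arrays the counts were 893 and 408, with 79 interaction calls. Array weights gave 1579 and 729, with 101 and 152. The Gapdh covariate gave 928 and 416, with 85 and 84. Left out together, the arrays over 3 log2 units above their group in a marker list or in Gapdh, a setting chosen after seeing the data, gave 80 interaction calls. Leaving out 1 pregnancy array gave 372 to 894 probe sets, 165 to 417 genes, 46 to 77 same-direction calls and 29 to 84 interaction calls. The fewest interaction calls came without QSi5 array 2, and the highest of each range came without QSi5 array 4.

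With a replicate block the counts were 301 probe sets, 128 genes and 34 same-direction calls. No interaction call was left in limma (0 under the block, where 1847 probe sets had an unadjusted p under 0.05, against 2422 without it). Same-numbered pregnancy arrays correlated in their deviations between -0.43 and 0.11, and differently numbered ones between -0.28 and 0.43. Because these ranges overlap, they cannot decide whether same-numbered arrays were handled together, and the labels do not say.

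Over 104 named genes and their alternatives, 2303 of 2390 comparisons kept direction and call, 78 lost the call, 9 gained one and none reversed, although 130 changed sign among genes not called as reported. Of 45 called genes, 29 kept the call throughout and 16 lost it somewhere. Under the replicate block, calls were lost for Ltf (adjusted p = 0.191), Birc5 (0.201), Slc34a2 (0.149), Aqp5 (0.166), Gsta2 (0.0994), Prom1 (0.0967), Muc20 (0.115) and C1galt1 (0.0986). With the 10 pregnancy arrays alone they were lost for Ltf (0.0919), Birc5 (0.210), Wnt5a (0.130), Slc34a2 (0.0902), Aqp5 (0.0715), Cyp1b1 (0.0798), Gsta2 (0.102), Prom1 (0.0555), Muc20 (0.05 when rounded), Slc16a1 and H2-Q10. Krt7 lost it with quantile normalization (0.102) and without the arrays over 3 units apart (0.0703), Ctse with all 26 arrays (0.180) and C1galt1 when its probe sets were averaged (0.100). These are not all losses of those genes. Mb gained a call without QSi5 array 3 (-1.20, adjusted p = 0.0174). The cause of these changes was not tested, and signal near background limits the dim genes.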

Other observations

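The 10 AIL arrays, which belong to no comparison here, were read for 12 genes that differed between the parental strains at both stages. H2-K1 lay at 11.17 to 11.40 on 6 AIL arrays, nearer the QSi5 lactation mean, and at 8.67 to 9.12 on 4, nearer that of CBA/CaH. H2-D1 placed the same 4 arrays near CBA/CaH, at 9.12 to 9.43, and the other 6 at 10.13 to 10.61. H2-Eb1 and D17H6S56E-5 were nearer CBA/CaH on all 10 arrays, at 7.67 to 8.75 and 9.86 to 12.80. Ptger2 was nearer QSi5 on all 10, at 7.74 to 9.06. Ctse was nearer QSi5 on 7 arrays, at 8.86 to 10.32, and nearer CBA/CaH on 3, at 6.22 to 6.32. Capg was nearer QSi5 on 3 arrays, at 5.08 to 5.37, and nearer CBA/CaH on 7, at 6.62 to 7.33. Pdxdc1 was nearer QSi5 on 1 array, at 5.68, and nearer CBA/CaH on 9, at 8.16 to 9.16. These values were not tested. Each gene was read through its chosen probe set, and those of H2-D1 and Pdxdc1 had others called in the opposite direction.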
